A study of Homo sapiens with 6 samples.

Results

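The cytosolic ribosomal protein genes were examined in Huh7 cells, an established human hepatoma line, after overexpression of the circular RNA hsa_circ_0098181. The members were all rows whose symbol is RPL or RPS followed by a number, with or without a final A or X, together with RPLP0, RPLP1, RPLP2 and RPSA. This gave 77 of the 50868 genes in the table, 46 of the large subunit and 31 of the small subunit. They lie on 21 chromosomes. FAU and RACK1, which encode subunit proteins under other names, were outside the rule and are given at the end with the paralogs. The first group held 3 RNA-seq libraries from Huh7 cells 48 hours after transfection with the hsa_circ_0098181 overexpression plasmid, and the second held 3 libraries from Huh7 cells 48 hours after transfection with the control plasmid. Both groups shared the same cell line, medium and transfection reagent, and no other agent or allele was named. The comparison asks which RNAs differ when this circle, which is made from exons of SOX5, is in excess. The model is a single tumor line with a plasmid added for a short time.

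Each ribosome has a small subunit, which reads the mRNA, and a large subunit, which joins amino acids and releases the chain through a tunnel. The ribosomal proteins are built into these subunits in equal copy numbers around the ribosomal RNAs, apart from the acidic stalk proteins, which are present as pairs. Their mRNAs are among the most abundant of a growing cell, are short, and mostly begin with a C followed by a run of C and T, the terminal oligopyrimidine (TOP) motif, through which mTOR and LARP1 control their translation. Liver tumor cells, like other growing cells, make ribosomes at a high rate. Their genes have left many processed pseudogenes in the genome, copies of the mature mRNA that read counting can confuse with the gene itself.

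The start of several of these mRNAs is shown because the TOP motif is a feature that many of the members share and that the rule did not use. RefSeq start windows (GRCh38.p14) were found for 62 of the 77 genes. Each window below gives 10 bases before the listed start and 20 bases from it on, 5′ to 3′ on the strand of the gene, and the capitals mark the run of C and T that begins with a C at the listed start. For a gene with several listed starts, the one with the longest such run was taken, which favors the motif.
RPL31 (chr2:101002279-101002308, plus strand): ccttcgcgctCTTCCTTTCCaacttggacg
RPL29 (chr3:51995876-51995905, minus strand): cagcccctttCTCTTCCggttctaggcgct
RPL41 (chr12:56116623-56116652, plus strand): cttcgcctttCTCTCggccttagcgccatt
RPL39 (chrX:119791611-119791640, minus strand): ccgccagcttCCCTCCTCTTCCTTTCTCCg
RPLP1 (chr15:69452808-69452837, plus strand): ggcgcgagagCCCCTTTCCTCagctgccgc
RPS21 (chr20:62387093-62387122, plus strand): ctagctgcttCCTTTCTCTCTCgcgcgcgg
RPS12 (chr6:132814559-132814588, plus strand): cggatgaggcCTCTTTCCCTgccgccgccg
RPS6 (chr9:19380217-19380246, minus strand): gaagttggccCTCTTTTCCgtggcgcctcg
RPL9 (chr4:39458903-39458932, minus strand): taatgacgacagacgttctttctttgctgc

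The motif searched was a C at the listed start followed by at least 4 bases that are each C or T, on the strand of the gene only. It was found in 46 of the 62 genes (74.2%), with 28 of 38 for the large and 18 of 24 for the small subunit. Among all RefSeq genes with such a window, 5.14% had it. Counted by window, since some genes have several listed starts, it was in 59.7% of 77 windows of these genes and in 4.07% of all 35116 windows. A run that begins within 5 bases of the listed start was in 74.0% of the windows of these genes and in 21.1% of all windows. The runs differ in length, from 5 bases in RPL41 to 19 in RPL39, with a median of 8. In the RPL9 window shown, no such run begins at the listed start. A match is a description of these letters and not a measured site of control. Among the genes without a window were RPL5, RPL7, RPL8, RPL23, RPL23A, RPL30, RPL37, RPS2, RPS15A and RPS20.

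Total gene counts ran from 11130902 to 14138262 per library. SOX5, the host gene, held 24906 to 33577 counts in the overexpression libraries and 380 to 453 in the controls, which matches the labels. Levels are given as CPM, read counts scaled to a common library size with TMM factors. Of the hepatocyte and hepatoma markers, ALB ran from 4365 to 5843 CPM and AFP from 10801 to 13276 CPM. The fibroblast and leukocyte markers were at most 9.20 CPM, CDH5 was at 0, and VWF did not exceed 0.0852 CPM, whereas PECAM1 ran from 46.9 to 59.1 CPM. Control replicate 1 stood apart from the other 5 libraries. Mitochondrial genes held 9.29% of its counts, against 6.32% to 7.04% elsewhere, and its 10 most abundant genes held 11.3%, against 8.81% to 9.25%. Since several results below rest on this library, the summaries of subunits and lists and the values of many single genes are given with and without it. The labels do not say that the replicates were separate cultures, so p-values measure only the spread between these libraries, which may be technical.

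Most ribosomal protein genes had a slightly higher level with overexpression, and none passed the test. All 77 members passed the filter on low counts. In edgeR's quasi-likelihood test no member of either subunit had an adjusted p under 0.05, with the lowest at 0.752 in the large and 0.797 in the small subunit. Over all 15055 genes tested, 0.0399% were called. DESeq2 called 1 member, RPL31, and 0.186% of all genes. Of the 46 large subunit genes, 42 had a positive and 4 a negative log2 fold change, with a median of 0.24 and a range from -0.14 to 0.67. Of the 31 small subunit genes, 28 were positive and 3 negative, with a median of 0.24 and the highest at 0.48. Over all genes tested, 50.5% were positive and the median was 0.00233. A median of this size is a 1.18-fold difference, and the standard error of a single member had a median of 0.13. At an unadjusted p under 0.05, 7 large and 4 small subunit genes were higher, where 2.42% of all genes were higher. None was lower, where 3.08% of all genes were.

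The direction was also read from the separate libraries, in CPM. In 17 large and 12 small subunit genes, all 3 overexpression libraries lay above all 3 controls, and this held for 6.4% of all genes. In no member did all 3 lie below, against 6.5% of all genes. With control replicate 1 left out of the comparison, the overexpression libraries lay above both other controls in 17 large and 12 small subunit genes as well, and in 10.3% of all genes. Control replicate 1 was the lowest of the 6 libraries for 68 of the 77 members. It lay below the mean of the other controls in 73 members, and over all 77 its median difference from that mean was -0.38 on the log2 scale. Overexpression replicate 1 was the highest library for 44 members, and 14 were highest in overexpression replicate 3, 11 in replicate 2, 6 in control replicate 2 and 2 in control replicate 3.

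**Figure D1:**
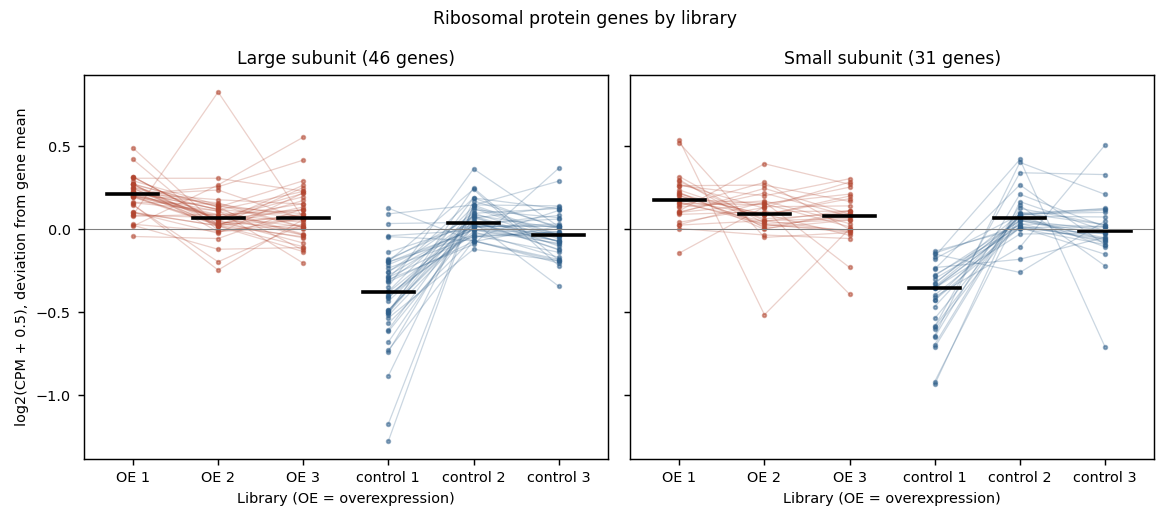
Deviation of each ribosomal protein gene from its own mean, on the log2(CPM + 0.5) scale (y axis), in the 6 libraries (x axis), for the large and the small subunit. Points and thin lines are single genes and thick bars are medians: control replicate 1 has medians of -0.38 and -0.35, and the other 5 libraries lie between -0.03 and 0.21.

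As deviations from each gene's mean over the 6 libraries, the overexpression replicates, in the order 1 to 3, had large subunit medians of 0.21, 0.07 and 0.07, whereas the control replicates had -0.38, 0.04 and -0.03. The small subunit medians were 0.17, 0.09 and 0.08 with overexpression, and -0.35, 0.07 and -0.01 in the controls. Both subunits therefore moved alike from library to library. Other genes moved with them to a smaller degree. Over 1562 genes tested with a coding length under 600 bases, ribosomal protein genes left out, the medians were 0.13, 0.03 and 0.04 with overexpression and -0.15, 0.01 and 0.01 in the controls. Over genes with a coding length above 3000 bases they were -0.15, -0.00171 and -0.00517, then 0.15, 0.02 and 0.02. The ribosomal protein genes have short coding regions, from 75 to 1281 bases with a median of 456, against a median of 1257 for all genes with a coding length. After a correction of each library for transcript length and GC content, the median log2 fold change was 0.18 for the large and 0.19 for the small subunit.

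Summed over its members, the large subunit held 2.02%, 1.85% and 1.83% of all gene counts in overexpression replicates 1 to 3. It held 1.38%, 1.82% and 1.66% in control replicates 1 to 3. The means were 1.90% ± 0.104 with overexpression and 1.62% ± 0.223 in the controls (SD, n = 3). All overexpression libraries lay above all controls, but control replicate 2, at 1.82%, was close to the nearest of them. For the small subunit the shares were 1.21%, 1.13% and 1.11% with overexpression and 0.816%, 1.11% and 1.06% in the controls, with means of 1.15% ± 0.0536 and 0.995% ± 0.156 (SD, n = 3). Here too the lowest overexpression library and control replicate 2 nearly coincided. With mitochondrial genes and SOX5 left out of the totals, the difference between the group means was 0.286 percentage points for the large subunit, against 0.279 with them. For the small subunit it was 0.159, against 0.156. The widest 95% Wilson interval of any of these shares spanned 0.0153 percentage points, which covers counting error only. The counts of the large subunit were 1.64 to 1.66 times those of the small subunit with overexpression, and 1.56 to 1.69 times in the controls, so the balance of the subunits overlapped between the groups. These are shares of the RNA in each library, and less RNA per cell cannot be told apart from fewer cells with that RNA.

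**Figure D2:**
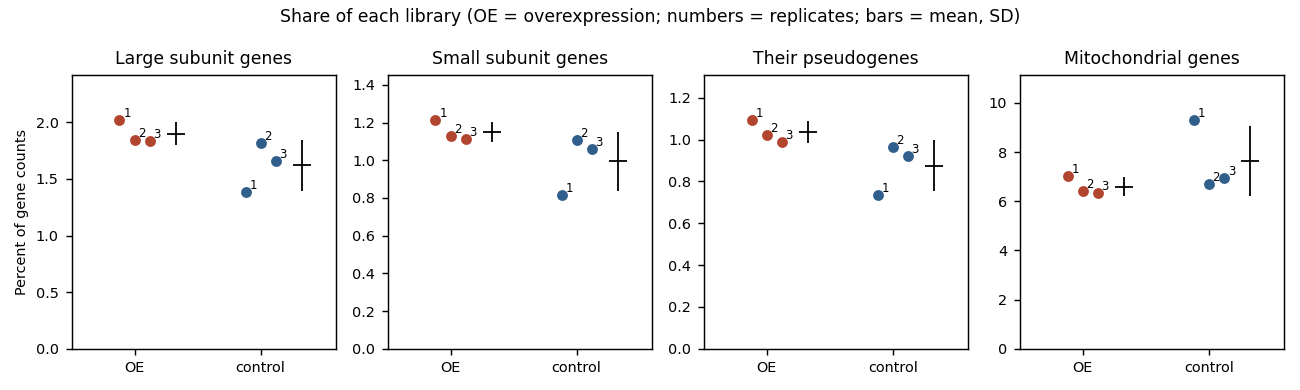
Percent of all gene counts (y axis) held by the large subunit genes, the small subunit genes, the rows named as their pseudogenes and the mitochondrial genes in each library, by group (x axis). Points carry replicate numbers and bars show mean and SD: control replicate 1 is lowest in the first 3 panels, at 1.38%, 0.816% and 0.738%, and highest in the last, at 9.29%.

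Without control replicate 1 the differences were smaller in both subunits. The median log2 fold change was 0.13 for the large subunit, with 41 genes positive and 5 negative. It was 0.11 for the small subunit, with 25 positive and 6 negative. Leaving out any other library gave medians from 0.17 to 0.31. The mean share of the large subunit was then 1.09 times that of control replicates 2 and 3, and that of the small subunit 1.06 times. At an unadjusted p under 0.05, 5 large and 0 small subunit genes were higher, where 2.09% of all genes were. The 5 were RPL31, RPL7A, RPL6, RPL4 and RPL24, and 1 small subunit gene was lower, where 2.18% of all genes were. No member had an adjusted p under 0.05 in edgeR, with the lowest at 0.425. Of the 70 members with a positive log2 fold change over all libraries, 4 turned negative, namely RPL36A, RPS3, RPS16 and RPS19.

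**Figure D3:**
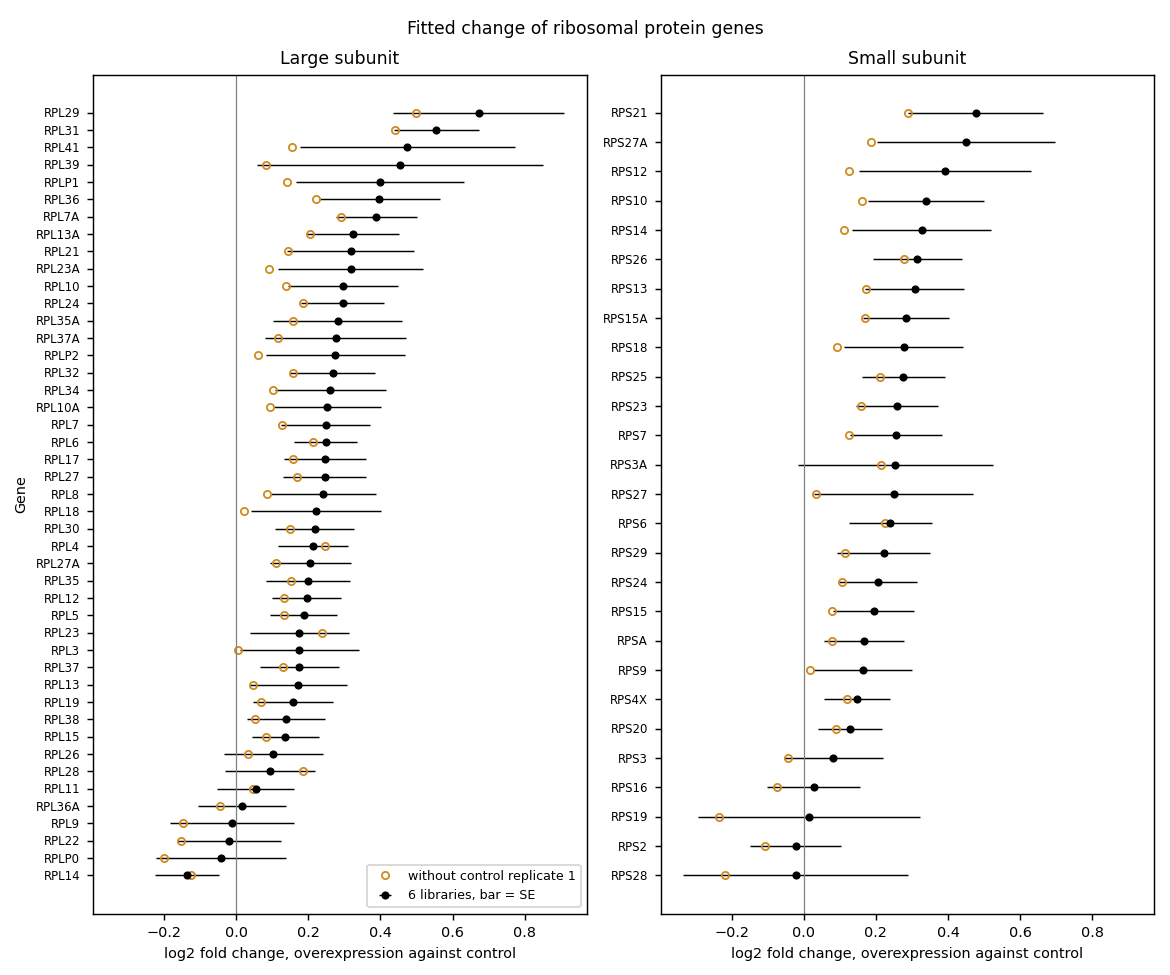
Fitted log2 fold change of ribosomal protein genes, overexpression against control (x axis), for 72 of the 77 genes (y axis). Filled points with SE bars use all 6 libraries and open circles leave out control replicate 1: most open circles lie nearer to 0, and the medians over all members move from 0.24 to 0.13 and from 0.24 to 0.11.

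RPL31, a protein beside the exit of the tunnel through which the new chain leaves, had groups that lay apart without any outlying library in the overexpression group. The gene (ENSG00000071082) is at chr2:101001715-101024032 in the files' hg38 coordinates. Its level was 132, 132 and 125 CPM in overexpression replicates 1 to 3. It was 73.6, 98.3 and 93.6 CPM in control replicates 1 to 3. All overexpression libraries lay above all controls, and the lowest of them was 125 CPM against 98.3 CPM in the highest control. The log2 fold change was 0.55 (SE 0.12), with an unadjusted p of 0.0014 and an adjusted p of 0.752 in edgeR. It was 0.44 without control replicate 1, where the unadjusted p was 0.000856. DESeq2 gave RPL31 an adjusted p of 0.0431, and over the 18 alternatives the adjusted p of edgeR, DESeq2 and limma ran from 0.0431 to 0.979.

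RPL29, a small protein also known to bind heparan sulfate, had the largest fitted difference of all members. Its levels were 217, 363 and 214 CPM with overexpression and 123, 195 and 180 CPM in the controls. The groups did not overlap, and overexpression replicate 2 was well above the rest. The log2 fold change was 0.67 (SE 0.24), with an adjusted p of 0.797 in edgeR, and it ran from 0.37 without overexpression replicate 2 to 0.80 without overexpression replicate 3. RPL41, which encodes the shortest of the ribosomal proteins and sits between the subunits, was at 232, 239 and 267 CPM with overexpression and at 88.6, 222 and 221 CPM in the controls. Only control replicate 1 was far from the others. The log2 fold change fell from 0.47 (SE 0.30) to 0.16 without that library. RPL39, a protein that lines the exit tunnel, had 5.03, 6.07 and 7.51 CPM with overexpression and 1.75, 5.54 and 6.17 CPM in the controls. These groups overlapped, and the log2 fold change of 0.45 (SE 0.40) became 0.08 without control replicate 1.

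At the other end of the large subunit, RPL14, RPLP0, RPL22 and RPL9 had negative log2 fold changes. RPL14 was at 292, 264 and 266 CPM with overexpression and at 306, 317 and 280 CPM in the controls. The groups overlapped in overexpression replicate 1 and control replicate 3, and control replicate 1 was not low here. This gave a log2 fold change of -0.14 (SE 0.09). RPL22, known also to bind small viral RNAs, was at 223, 176 and 205 CPM against 164, 229 and 219 CPM, with a log2 fold change of -0.02 (SE 0.14). RPL9 was at 24.8, 24.0 and 24.4 CPM against 19.6, 22.7 and 31.4 CPM, with a log2 fold change of -0.01 (SE 0.17). The overexpression libraries of RPL9 lay within the range of its controls. Without control replicate 1, RPL22 and RPL9 had log2 fold changes of -0.15 and -0.15.

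The stalk of the large subunit recruits the elongation factors. RPLP0, its base, and RPLP1 and RPLP2, the paired acidic proteins bound to it, did not have the same values. RPLP1 was at 412, 374 and 418 CPM with overexpression and at 185, 384 and 344 CPM in the controls, with a log2 fold change of 0.40 (SE 0.23). RPLP2 was at 173, 156 and 170 CPM against 92.7, 156 and 164 CPM, with a log2 fold change of 0.28 (SE 0.19). In both genes control replicate 1 was the only library far below the others, and without it the values were 0.14 and 0.06. RPLP0 was at 1002, 761 and 941 CPM with overexpression and at 710, 1162 and 913 CPM in the controls. Its groups overlapped fully, with the highest and the lowest library both among the controls. It had a log2 fold change of -0.04 (SE 0.18), and of -0.20 without control replicate 1.

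RPL5 and RPL11 form a particle with the 5S ribosomal RNA, and outside the ribosome this particle binds MDM2, a ubiquitin ligase. RPL5 was at 615, 546 and 557 CPM with overexpression and at 462, 536 and 511 CPM in the controls. The groups did not overlap, and the log2 fold change was 0.19 (SE 0.09), with an adjusted p of 0.797 in edgeR, and 0.13 without control replicate 1. RPL11 was at 780, 755 and 607 CPM against 680, 696 and 687 CPM. Its controls were close together, control replicate 1 included, and the overexpression libraries lay on both sides of them, with a log2 fold change of 0.05 (SE 0.11).

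RPL10A, which forms the stalk beside the exit site for tRNA, was at 593, 546 and 557 CPM with overexpression and at 362, 545 and 516 CPM in the controls. The lowest overexpression library was barely above control replicate 2, and the log2 fold change was 0.25 (SE 0.15), or 0.09 without control replicate 1. RPL36A was at 17.0, 16.8 and 19.1 CPM against 15.9, 17.9 and 18.6 CPM, and its groups overlapped, with a log2 fold change of 0.02 (SE 0.12). Besides RPL29 and RPL31, the large subunit genes with an unadjusted p under 0.05 were RPL36, RPL7A, RPL13A, RPL24 and RPL6, which are named here after their values were seen. Their log2 fold changes were 0.40, 0.39, 0.32, 0.30 and 0.25, and their groups did not overlap. Without control replicate 1 the values were 0.22, 0.29, 0.20, 0.19 and 0.21. With the counts of each gene's pseudogenes added, over all libraries, they were 0.40, 0.37, 0.21, 0.27 and 0.25. RPL13A held only 40.4% of the counts of the gene and its named pseudogenes, so its level is uncertain.

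**Figure D4:**
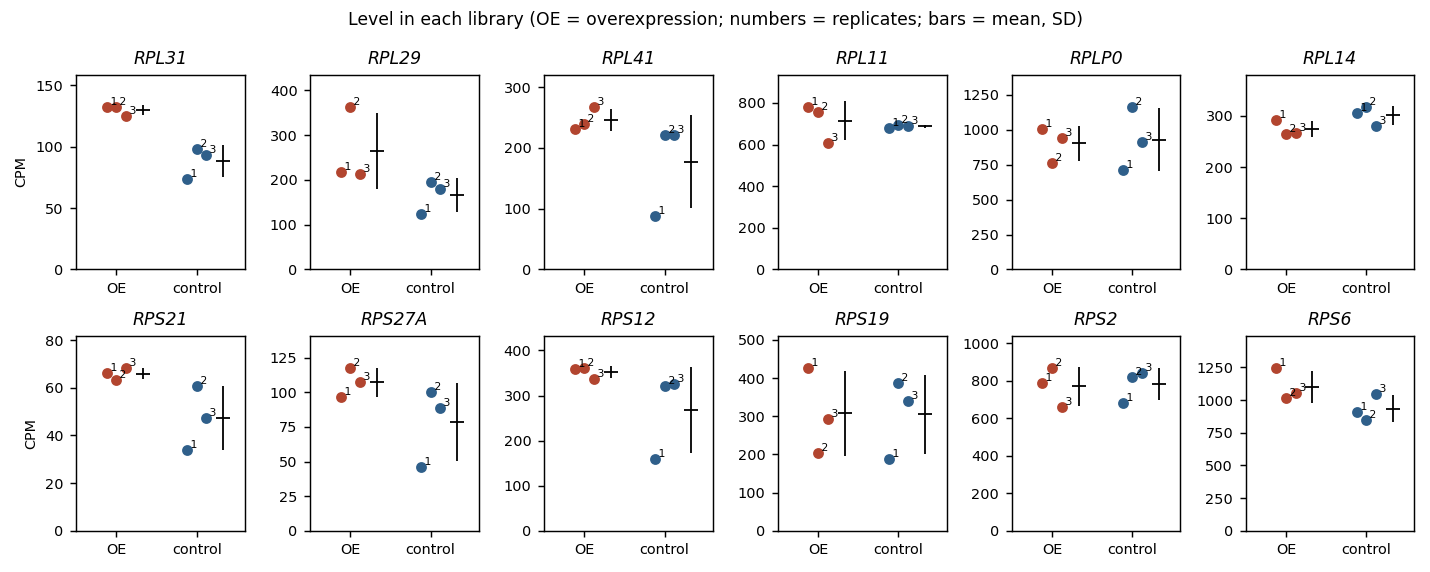
Level in CPM (y axis, from 0) of 12 ribosomal protein genes in each library, by group (x axis). Points carry replicate numbers and bars show mean and SD: in RPL31 the groups are apart, in RPL41 and RPS12 mainly control replicate 1 is low, and in RPS19 both groups are wide.

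In the small subunit the largest fitted difference was that of RPS21 (ENSG00000171858, chr20:62387116-62388520). It was at 66.3, 63.4 and 68.2 CPM with overexpression and at 33.9, 61.0 and 47.2 CPM in the controls. The groups did not overlap, though control replicate 2 came close. The log2 fold change was 0.48 (SE 0.19), with an adjusted p of 0.797 in edgeR, and 0.29 without control replicate 1. RPS27A, which is made as a fusion with ubiquitin, was at 96.3, 117 and 108 CPM against 46.4, 100 and 88.5 CPM. Its groups overlapped through overexpression replicate 1 and control replicate 2, and the log2 fold change of 0.45 (SE 0.25) became 0.19 without control replicate 1.

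RPS12 and RPS10 lie in the head of the small subunit, which swings as the mRNA moves. RPS12 was at 359, 360 and 337 CPM with overexpression and at 158, 321 and 326 CPM in the controls. RPS10 was at 147, 145 and 150 CPM against 85.3, 135 and 129 CPM. In both the groups did not overlap and control replicate 1 was far below the rest. Their log2 fold changes were 0.39 (SE 0.24) and 0.34 (SE 0.16), and 0.12 and 0.16 without that library. The small subunit genes with an unadjusted p under 0.05 other than RPS21 were RPS26, RPS15A and RPS25, named here after their values were seen, with log2 fold changes of 0.31, 0.28 and 0.28. These were 0.28, 0.17 and 0.21 without control replicate 1. With the counts of each gene's pseudogenes added, over all libraries, they were 0.19, 0.28 and 0.28.

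RPS19, the gene most often mutated in Diamond-Blackfan anemia, varied more within the groups than between them. It was at 426, 205 and 294 CPM with overexpression and at 188, 388 and 339 CPM in the controls, with a log2 fold change of 0.02 (SE 0.31), or -0.24 without control replicate 1. Its highest overexpression library was 2.08 times its lowest, the widest such range of any member, while the median member had a range of 1.15 times within the overexpression group and 1.36 times within the controls. Only 4 members exceeded 1.5 times within the overexpression group, namely RPS19, RPL29, RPS28 and RPL35A. Within the controls 27 did, and between control replicates 2 and 3 alone 2 did, RPS3A and RPS28.

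RPS2, near the entry of the mRNA channel, was at 788, 866 and 659 CPM against 684, 822 and 844 CPM, with a log2 fold change of -0.02 (SE 0.13). RPS28 was at 5.03, 4.50 and 2.99 CPM against 2.95, 3.75 and 6.01 CPM, with a log2 fold change of -0.02 (SE 0.31). Neither separated the groups, and without control replicate 1 the values were -0.11 and -0.22. RPS6, the protein phosphorylated by S6 kinases below mTOR, was at 1243, 1016 and 1050 CPM with overexpression and at 911, 844 and 1046 CPM in the controls. It overlapped only through control replicate 3, and control replicate 2 was its lowest library. RPS6 had a log2 fold change of 0.24 (SE 0.12), and of 0.22 without control replicate 1. RPSA, which is also known as a laminin receptor, was at 603, 559 and 512 CPM against 432, 544 and 515 CPM. RPS29, a protein of the head, was at 31.2, 32.0 and 29.1 CPM against 22.2, 29.8 and 27.2 CPM. Both overlapped between groups, with log2 fold changes of 0.17 (SE 0.11) and 0.22 (SE 0.13), which became 0.08 and 0.11 without control replicate 1.

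How reads that match several places were counted is not given in the sources used here, so the rows named as pseudogenes of the members were counted as well. There were 967 such rows, of which 388 had reads. For 52 members over 95% of the counts of the gene and its named pseudogenes were on the gene. For 12 members under 50% were. The lowest shares were 1.96% for RPS28, 5.14% for RPL21, 7.84% for RPL9, 11.4% for RPS26, 11.4% for RPL7 and 12.2% for RPL23A. RPS28 itself held 320 counts over the 6 libraries, while its pseudogene rows held 16005. RPS2 held 58743 against 106388. The levels of these 12 genes are therefore uncertain.

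The pseudogene rows moved between libraries as the genes did. With overexpression they took 1.09%, 1.02% and 0.991% of all counts, compared with 0.738%, 0.967% and 0.922% for the controls. The ratio of the members' counts to those of their pseudogenes was 2.90 to 2.97 with overexpression and 2.95 to 3.03 in the controls. With each gene and its pseudogenes summed, the median log2 fold change was 0.23 for the large subunit, with 45 of 46 positive, and 0.22 for the small subunit, with 30 of 31 positive. RPL9, RPLP0, RPL14, RPS2 and RPS28 turned from negative to positive, with summed values of 0.30, 0.03, 0.01, 0.12 and 0.08. RPL22 stayed negative. Without control replicate 1 the summed medians were 0.13 and 0.12. Among the 52 genes that held over 95% of their own family's counts, 50 were positive and the median log2 fold change was 0.24.

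**Figure D5:**
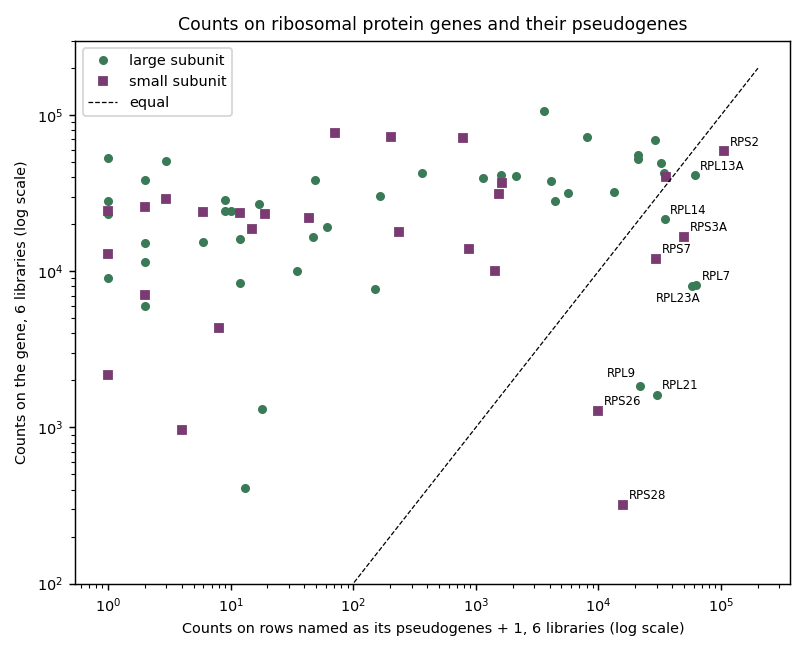
Counts on the ribosomal protein genes (y axis, log scale) against counts on the rows named as their pseudogenes plus 1 (x axis, log scale), summed over 6 libraries, for 72 of the 77 genes. The dashed line marks equal counts, and the 11 labelled genes to its right hold under 50% of their family's counts, RPS28 the least at 1.96%.

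Levels of different members can be compared only per length. As CPM per kilobase of coding sequence, averaged over the 6 libraries, members ran from 20.3 for RPS28 to 2821 for RPL41, with a median of 699. Several of the lowest values belonged to genes with large pseudogene counts, RPS28 at 20.3, RPL9 at 42.5, RPL21 and RPS26 among them. Other low members had few pseudogene counts, RPL39 at 34.9 and RPL36A at 55.2 CPM per kilobase among them. RPL41 has a coding region of 75 bases, and since reads on its untranslated parts are counted too, its value per coding kilobase is overstated. RPS6 was at 1363, RPL11 at 1312, RPL10A at 798 and RPS12 at 783 CPM per coding kilobase. These 4 genes had the highest deposited FPKM of their subunits, at 267, 285, 216 and 334. The lowest deposited FPKM values were 1.06 for RPS28, 2.15 for RPL39, 2.51 for RPS29 and 3.07 for RPL36A. Deposited FPKM served only to choose some of the genes named. It was not used to compare levels between members, because the length behind it was 2.35 to 67.7 times the coding length, with a median of 12.1.

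Members with and without the TOP motif at a listed start had similar values. Of the 46 genes with the motif at a listed start, 43 had a positive log2 fold change and the median was 0.26. Of the 16 genes with a window but without the motif there, 14 were positive and the median was 0.22. Some of these 16 have a run that begins within 5 bases of the listed start, such as RPL4 with 12 bases and RPL10A with 9. The comparison therefore depends on the listed starts and cannot separate mRNAs that begin with the motif from those that do not. These values describe genes that share the same libraries.

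Other genes of the pathway were read from the same fit. No gene of these lists had an adjusted p under 0.05 in edgeR. Of the 11 paralogs and fusion genes outside the rule, 9 were tested, 8 had a positive log2 fold change and the median was 0.15. It was 0.04 without control replicate 1, where 5 were positive. RPL39L, the paralog of RPL39, was at 10.1, 11.5 and 11.15 CPM with overexpression and at 7.84, 10.2 and 8.15 CPM in the controls. Its log2 fold change was 0.32 (SE 0.16), or 0.25 without control replicate 1. RPL7L1 was at 135, 152 and 155 CPM against 152, 137 and 163 CPM, with a log2 fold change of -0.03 (SE 0.10). FAU, which encodes a ubiquitin-like fusion to a small subunit protein, was at 147, 125 and 141 CPM against 81.3, 144 and 139 CPM. Only control replicate 1 was far from the others, and the log2 fold change of 0.18 (SE 0.20) became -0.04 without it. RACK1, a scaffold protein on the head of the small subunit, had a log2 fold change of 0.03 (SE 0.15), and of -0.11 without control replicate 1.

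The factors that build ribosomes had values near those of all genes. Of 56 ribosome biogenesis genes, 34 were positive and 22 negative, with a median of 0.02. Without control replicate 1, 31 were positive and 25 negative, with a median of 0.00434. At an unadjusted p under 0.05 over all libraries, 1 was higher and 1 lower, where 2.42% and 3.08% of all genes were. The largest value over all libraries was that of BOP1, a factor for processing of large subunit RNA, with 83.0, 83.4 and 75.1 CPM against 52.0, 71.8 and 77.0 CPM and a log2 fold change of 0.27 (SE 0.15). Without control replicate 1 it was 0.12, and NOP2 at 0.34 and BRIX1 at 0.23 were above it. The smallest was that of SNU13, a protein of small nucleolar particles, with 45.7, 44.5 and 95.8 CPM against 90.0, 94.2 and 100 CPM. Overexpression replicate 3 of SNU13 lay with the controls, and the log2 fold change was -0.61 (SE 0.27).

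RNA polymerase I transcribes the large ribosomal RNA precursor. Of 15 genes of its subunits and factors, 5 were positive and 10 negative, with a median log2 fold change of -0.05. Without control replicate 1, 3 were positive and 12 negative, with a median of -0.06. At an unadjusted p under 0.05 over all libraries, none was higher and 1 was lower, where 2.42% and 3.08% of all genes were. POLR1D, a subunit shared with RNA polymerase III, was at 81.6, 65.9 and 65.7 CPM against 58.1, 62.3 and 68.1 CPM, with 0.18 (SE 0.12). TTF1, the factor that terminates this transcription, was at 20.2, 19.1 and 20.4 CPM against 25.7, 22.2 and 25.5 CPM. Its groups did not overlap, as held in this direction for 6.5% of all genes. The log2 fold change of TTF1 was -0.30 (SE 0.11), or -0.26 without control replicate 1.

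Of 20 listed regulators of TOP mRNAs and ribosome synthesis 19 were tested, with 7 positive, 12 negative and a median log2 fold change of -0.01. Without control replicate 1, 9 were positive and 10 negative, with a median of -0.02. The smallest value over all libraries was that of LARP4, an RNA-binding protein, with 188, 199 and 204 CPM against 272, 204 and 223 CPM. Its log2 fold change was -0.24 (SE 0.12), or -0.11 without control replicate 1. The largest was that of MYC, a transcription factor for ribosomal genes. It was at 2.69, 77.9 and 3.23 CPM with overexpression and at 2.77, 2.90 and 5.51 CPM in the controls, so its log2 fold change of 2.90 (SE 1.22) rests on overexpression replicate 2 alone. In that library the median deviations of the large and small subunit genes were 0.07 and 0.09, and a link between MYC and these genes was not tested.

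A list of genes of the ribosomal stress response was read as well. Of 14 genes tested, 6 were positive and 8 negative, with a median log2 fold change of -0.09. Without control replicate 1, 5 were positive and 9 negative, with a median of -0.09. At an unadjusted p under 0.05, 1 was higher and 1 lower, where 2.42% and 3.08% of all genes were. Without control replicate 1, 0 were higher and 2 lower, where 2.09% and 2.18% of all genes were. BTG2, an antiproliferative gene, was at 24.6, 25.3 and 26.4 CPM with overexpression and at 20.2, 22.8 and 19.8 CPM in the controls. Its groups did not overlap, as held in this direction for 6.4% of all genes. The log2 fold change of BTG2 was 0.28 (SE 0.11), with an adjusted p of 0.797 in edgeR, and 0.26 without control replicate 1.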

How the data were processed

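RNA-seq of Huh7 cells gave 6 libraries, 3 per group, with groups read from their titles. In the table that the authors deposited, each gene has a raw count of reads and an FPKM value for every library. The submitters' processing notes name TopHat2 2.0.9 and hg38; the counting tool, strand handling and treatment of reads with several matches are not given in the sources used here. Counts were tested with edgeR 4.0.16 in R 4.3.3, where genes were filtered by filterByExpr (minimum count 10), scaled with TMM and fitted by group in glmQLFit. The test was glmQLFTest, two-sided, and its p-values were adjusted by Benjamini-Hochberg over 15055 genes. CPM used TMM library sizes. Total counts were 11130902 to 14138262. Within groups, library pairs differed by a chi-square of 11.0 to 22.9 per degree of freedom, so none was a copy of another.

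The members and lists were chosen with earlier results of these data known. The genes named were, per subunit, the 4 largest and 4 smallest log2 fold changes and the 2 highest and 2 lowest deposited FPKM, with RPLP0, RPLP1, RPLP2, RPL5, RPL11, RPS6, RPSA and RPS27A, and in each other list the largest and smallest. Pseudogenes were matched by name, and coding lengths came from GENCODE 29. Alternatives were RLE and upper-quartile normalization, TMM factors without ribosomal protein genes and their pseudogenes, DESeq2 1.42.0, other count filters, limma 3.58.1 on log2(FPKM + 1) where FPKM reached 1 in 3 libraries, a replicate block, summed pseudogenes, a length and GC correction by splines with 5 degrees of freedom, and leaving out each library. The fits were also run on simulated counts with changes larger than those of any member. That run does not cover differences of the size reported here. In the list of TOP regulators, 1 symbol was not matched. The values of some members and listed genes are not reported here, though they are kept in all counts and medians.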

Additional observations from a re-analysis of the deposited data

How the results depend on the processing

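The call of 0 members in each subunit and the positive median log2 fold changes held their side and direction under the alternatives run, except that DESeq2 called 1 large subunit gene, RPL31, where it called 0.186% of all genes. Without control replicate 1 the medians were 0.13 and 0.11, and with the length and GC correction and no control replicate 1, a combination chosen after seeing the data as was that with summed pseudogenes, they were 0.10 and 0.08. The labels do not say whether replicate numbers pair the libraries. Deviations of same-numbered libraries correlated at -0.04 to -0.02 over all genes and at 0.33, -0.18 and 0.30 over the ribosomal protein genes. A fit with the replicate number as a block gave medians of 0.25 and 0.24 with 0 members called. Several of the named genes with values near 0 changed direction, and the cause was not tested. RPL9 was 0.00534 with upper-quartile normalization, 0.0301 with limma on FPKM, 0.0156 with the replicate block, 0.30 with summed pseudogenes and 0.12 with those and no control replicate 1, and ran from -0.15 to 0.21 with each library left out. RPL22 was 0.0113 with limma (-0.15 to 0.0698 with a library left out), and RPLP0 was 0.00128 with limma and 0.0297 with summed pseudogenes (-0.20 to 0.15). RPL14 was 0.0149 with summed pseudogenes. RPL11 was -0.0111 with the length and GC correction (-0.0150 to 0.16 with a library left out). RPL36A was -0.0459 with that correction, -0.0533 with summed pseudogenes and no control replicate 1, and -0.0878 with the correction and no control replicate 1 (-0.0458 to 0.0647). RPS19 was -0.11, -0.24 and -0.31 under the same 3 settings (-0.29 to 0.24). RPS2 was 0.12 with summed pseudogenes and 0.0270 with those and no control replicate 1 (-0.12 to 0.0798). RPS28 was 0.00869 with limma, 0.00322 with the replicate block, 0.0831 with summed pseudogenes and 0.18 with those and no control replicate 1 (-0.22 to 0.32). RPLP2 was -0.0170 with the correction and no control replicate 1. With 3 libraries a group and a median standard error of 0.13, differences of the size of the subunit medians were not detectable gene by gene, and counts of members with many pseudogene reads are uncertain.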
